A study of Mus musculus with 4 samples.

Results

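The Hox genes are a family of homeobox transcription factors that lie in 4 clusters, Hoxa on chromosome 6, Hoxb on 11, Hoxc on 15 and Hoxd on 2 in the mouse. They were followed here in mouse embryonic stem cells with and without Trim28, also called KAP1, a co-repressor recruited by KRAB zinc finger proteins. The list named 38 Hox genes, and a gene was read from probe sets annotated to that gene alone. That left 36 measured members among 18820 genes tested: 10 in cluster A, 9 in B, 9 in C and 8 in D, each with 1 such probe set. Hoxb8 shares its probe set with Hoxb7 and Hoxd13 had no probe set listed for it alone, so neither entered the comparison.

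Total RNA came from 2 samples with a wild-type genotype (KAP_WT) and 2 with the KAP1 fl/fl genotype after knockout (KAP_KO), labelled as biological replicates, 1 Affymetrix Mouse Gene ST 1.1 array each. All 4 carry the label 4-OH-tamoxifen, the inducer of the deletion. The protocol text speaks of 24 h of 4-hydroxytamoxifen or ethanol vehicle and 48 h without it, on irradiated embryonic fibroblast feeders. The series design describes cells before and after conditional knockout, while the labels give the control a wild-type genotype. No source used here says whether both groups are 1 line or how many clones were used, so a difference between lines and loss of Trim28 cannot be told apart. Beyond that label nothing says that replicates came from separate cultures, and the p-values measure the spread between these samples, which may be technical.

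Hox proteins give cells along the head-to-tail axis their positional identity. Within a cluster, genes at the 3' end carry low numbers, are switched on early and act in the hindbrain and neck; genes at the 5' end carry high numbers, come on later and act in the trunk, limbs and tail. Genes with the same number in different clusters are paralogs, forming paralog groups 1 to 13. In pluripotent cells the clusters are a classical target of Polycomb repression, and retinoic acid, Wnt and FGF signals, in part through Cdx factors, activate them on differentiation. The series title places Trim28 beside Rnf2, a catalytic subunit of Polycomb complex PRC1, in repression of differentiation genes.

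The values are deposited log2 array values, and a change is the knockout mean minus the wild-type mean on that log2 scale. Trim28 itself had readings of 11.29 and 11.37 with the gene intact and of 8.97 and 8.92 after its loss, so it fell by 2.38 (SE 0.09, limma adjusted p = 3.39e-05). The stem cell markers Pou5f1, Nanog and Sox2 read between 10.65 and 11.33 in wild-type cells and between 9.69 and 10.86 in knockout cells. Of 13 stem cell markers 9 fell and 1 (Lin28a) rose. Without wild-type replicate 1 or wild-type replicate 2 fewer of the markers fell, as did fewer of all genes. Pou5f1, Nanog and Sox2 then missed the threshold. In the fit of all 4 samples the 9 stem cell markers that fell are 69.2% of their list, against 12.7% of all genes. Of the 13 markers 0 read below the array median of tested genes in all samples. Of genes above the median level, fitted alone, 21.6% were called lower. Each of the 36 Hox members read below its array's median of tested genes (5.46 and 5.48 in wild-type, 5.66 and 5.63 in knockout cells) in all 4 samples. Hox values ran from 3.05 to 5.45.

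**Figure D1:**
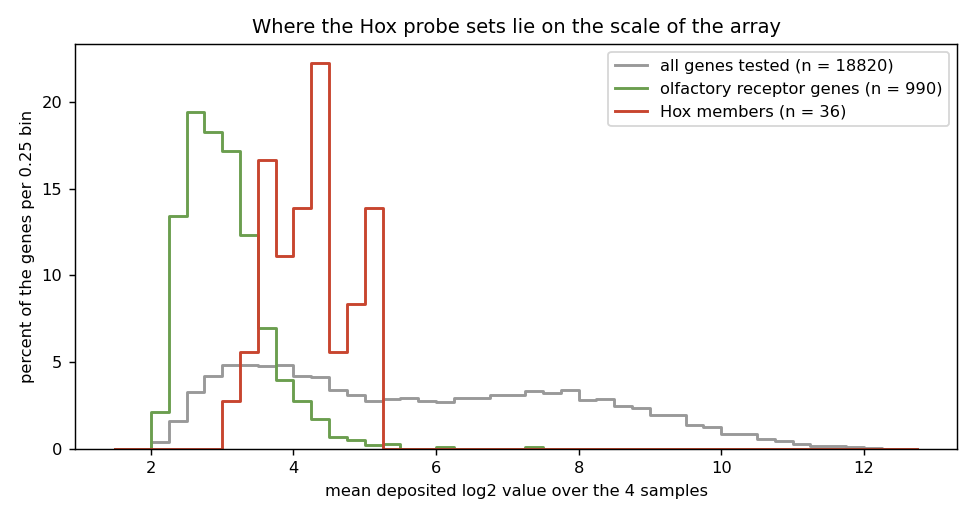
Distribution of the mean log2 value over the 4 samples, as the percent of genes in each 0.25-wide bin, for all tested genes (grey), olfactory receptor genes (green) and the Hox members (red). The Hox curve lies at the dim end, overlapping the upper part of the olfactory receptor curve, and has no gene toward the bright end of the axis.

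Olfactory receptor genes, which are restricted to sensory neurons, serve as a view of how dim probe sets read on these arrays; they were chosen after the Hox values were seen. Their mean values had a 5th percentile of 2.34, a median of 2.95 and a 95th percentile of 4.12 over 990 genes. The mean of 19 Hox members lay above that 95th percentile and that of 17 did not. Values of different probe sets also depend on their probes, so this places the readings on the scale and does not order the genes by expression. No detection calls were used here. Among the olfactory receptor genes 2 rose (0.20%, against 14.2% of all genes) and 18 fell (1.82%, against 12.7%) in limma.

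Most Hox members did not pass the test between knockout and wild type. In limma, fitted over all genes with Benjamini-Hochberg adjustment, 5 of 36 members rose (13.9%; 14.2% of all genes rose) and 2 fell (5.56%; 12.7% of all genes fell). The 7 calls make up 19.4% of the members, against 26.9% of all genes, so the share called was not above that of all genes. Calls were more frequent among bright genes. Of genes above the median level, fitted alone, 20.3% were called higher and 21.6% lower, and no Hox member lies there. The share among genes as dim as the members was not computed. The members that rose were Hoxb1, Hoxb2, Hoxb4, Hoxd8 and Hoxa10, and those that fell were Hoxb13 and Hoxc4. Only Hoxb1 changed by 2-fold or more among the measured members. The median change was 0.11 over the members and -0.05 over all genes. The array medians of the tested genes lie 0.17 higher in the knockout, and subtracting them (array medians subtracted, here and below) turned the members' median to -0.06 and that of all genes to -0.22, with 2 members higher and 4 lower. It also raised the share of all genes called lower to 34% and brought the share called higher to 11%. The medians of all probe sets differ by 0.015, and subtracting those instead, a step added after the data were seen, left the members' median at 0.096 with 5 higher and 2 lower. Leaving out wild-type replicate 1 left Hoxb1 and Hoxb13 called, wild-type replicate 2 left Hoxb1 and Hoxb2, and knockout replicate 2 left Hoxb1 and Hoxb13, each time 2 of the members. With knockout replicate 1 left out there were 8 calls. Fibroblast markers, given further on, rose in the same knockout samples (20 of 28, or 71.4%, against 14.2% of all genes). Their part in the Hox changes was not tested.

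**Figure D2:**
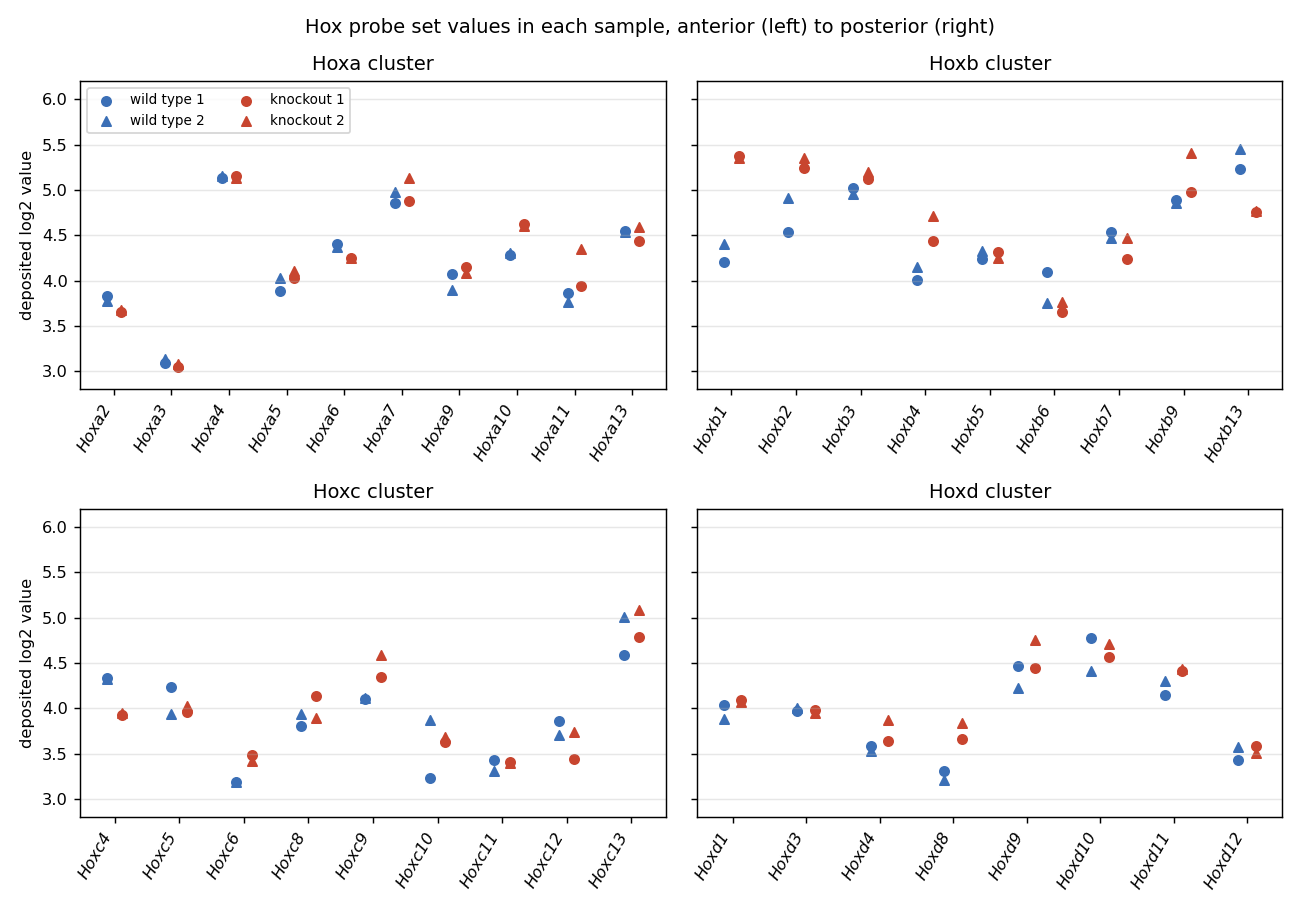
Deposited log2 value of each measured Hox gene in each sample, 1 panel per cluster, ordered from paralog group 1 (left) to 13 (right). Blue marks the wild type and red the knockout; circles are replicate 1 and triangles replicate 2. Hoxb1 shows the widest gap between the groups, at 4.20 and 4.40 against 5.37 and 5.35.

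The groups did not overlap in 21 members, with the knockout higher in 15 (41.7%) and lower in 6 (16.7%). Over all genes the knockout was higher without overlap in 26.6% and lower in 38.6%. In the other 15 members the groups overlapped. Replicates of a member lay a median of 0.12 apart in wild-type and 0.078 in knockout cells. The widest gaps were those of Hoxc10 in the wild type (3.23 and 3.87) and Hoxb9 in the knockout (4.98 and 5.41).

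Of the 5 members that rose, 3 lie in the Hoxb cluster. Hoxb1, which specifies a hindbrain segment, read 4.20 and 4.40 in wild-type and 5.37 and 5.35 in knockout cells. Both knockout samples lay above both wild-type samples, with a gap larger than the spread within either group. Its mean rose from 4.30 ± 0.14 to 5.36 ± 0.01 (SD, n = 2 each), a change of 1.06 (SE 0.10, 95% confidence interval 0.81 to 1.30, limma adjusted p = 6.66e-04) or 2.08-fold. Hoxb1 was the only member past the threshold in every alternative run that kept it, with changes from 0.89 to 1.16. All its knockout values still lay below the median of tested genes on their arrays.

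Hoxb2, its neighbour and a factor of the anterior hindbrain, read 4.53 and 4.91 in wild-type and 5.24 and 5.35 in knockout cells. The samples of the groups did not overlap, though the wild-type pair lay farther apart than the knockout pair. The change was 0.57 (SE 0.14, limma adjusted p = 0.0233), and the adjusted p was 0.104 without wild-type replicate 1 and 0.0746 without knockout replicate 2. Under quantile normalization it was 0.0594. Hoxb4, a gene of the posterior hindbrain and neck that is also used to expand blood stem cells in culture, read 4.01 and 4.15 against 4.44 and 4.72. It too had no overlap, with a change of 0.50 (SE 0.12, limma adjusted p = 0.0252). The adjusted p of Hoxb4 was between 0.0900 and 0.156 without wild-type replicate 1, wild-type replicate 2 or knockout replicate 2, and 0.0680 with array medians subtracted. Hoxb3, which lies between them, read 5.02 and 4.95 against 5.12 and 5.20, a change of 0.18 that did not pass (adjusted p = 0.216).

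The promoters of these genes are shown because Hoxb1 and Hoxb4 rose in the same cluster, Hoxc4, the paralog of Hoxb4, fell, and Hoxd8 rose outside the Hoxb cluster; they were chosen after the values were seen. Each is the 250 bases before the RefSeq start of the gene in GRCm38.p6, 5' to 3' on the plus strand, at chr11:96365508-96365757 for Hoxb1, chr11:96318017-96318266 for Hoxb4, chr15:103034145-103034394 for Hoxc4 and chr2:74704365-74704614 for Hoxd8. Capitals mark matches to AGGTCA, the hexamer bound by nuclear receptors such as those for retinoic acid, to TGATNNAT, a Pbx and Hox site, or to TATAAA, the TATA box, on either strand.
Hoxb1: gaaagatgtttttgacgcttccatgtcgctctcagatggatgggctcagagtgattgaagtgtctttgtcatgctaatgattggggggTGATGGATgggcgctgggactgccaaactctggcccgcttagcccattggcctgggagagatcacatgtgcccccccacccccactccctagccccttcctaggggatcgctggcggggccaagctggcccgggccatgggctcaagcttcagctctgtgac
Hoxb4: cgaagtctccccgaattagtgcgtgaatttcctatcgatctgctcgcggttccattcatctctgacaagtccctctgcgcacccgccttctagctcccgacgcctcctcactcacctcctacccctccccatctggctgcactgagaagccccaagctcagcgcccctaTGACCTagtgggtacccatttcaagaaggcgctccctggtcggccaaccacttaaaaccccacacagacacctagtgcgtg
Hoxc4: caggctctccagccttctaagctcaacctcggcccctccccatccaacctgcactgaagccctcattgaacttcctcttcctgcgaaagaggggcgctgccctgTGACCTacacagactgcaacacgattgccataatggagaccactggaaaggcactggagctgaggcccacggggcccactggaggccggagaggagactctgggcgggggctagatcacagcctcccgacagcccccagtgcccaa
Hoxd8: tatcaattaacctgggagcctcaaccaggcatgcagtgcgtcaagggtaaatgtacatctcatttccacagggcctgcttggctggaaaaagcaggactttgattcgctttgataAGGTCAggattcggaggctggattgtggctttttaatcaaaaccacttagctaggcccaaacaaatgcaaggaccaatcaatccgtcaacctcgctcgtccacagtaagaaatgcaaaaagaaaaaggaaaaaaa
The Hoxb1 window holds 1 match to TGATNNAT, and those of Hoxb4, Hoxc4 and Hoxd8 hold 1 match each to AGGTCA. RefSeq promoter entries matched 22 of the 38 listed symbols, with 24 entries in all. AGGTCA lay in 6 of these 24 (25%) and in 14.0% of all 32851 promoter windows of that length. TGATNNAT lay in 4 of 24 (16.7%) and 7.68% of all, and TATAAA in 4 of 24 and 12.4% of all. Hoxa10, which also rose, has 2 entries, of which 0 hold AGGTCA or TGATNNAT and 1 holds TATAAA. Hoxb2 and Hoxb13 had no entry. The AGGTCA hexamer stood in members that rose (Hoxb4 and Hoxd8), in one that fell (Hoxc4) and in Hoxd3, Hoxd4 and Hoxd10, which did not pass. The Hox windows held a median of 12.5 CpG dinucleotides, against 6 over all windows; Hoxb1 held 7, Hoxb4 14, Hoxc4 8 and Hoxd8 6. A match of letters is a description and shows no binding.

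No rise was called in the rest of the Hoxb cluster. Hoxb5, Hoxb6 and Hoxb7, trunk-level genes, had changes of 0.00, -0.21 and -0.15, none of which passed. The probe set shared by Hoxb7 and Hoxb8 averaged 3.70 and 3.55 in wild-type and knockout cells. Hoxb9, a thoracic gene, read 4.89 and 4.85 against 4.98 and 5.41; its change of 0.32 did not pass (adjusted p = 0.159), and knockout replicate 2 alone stood high. Without knockout replicate 1 Hoxb9 passed (adjusted p = 0.0172). Hoxb13, the most posterior gene of the cluster and a regulator of tail and prostate development, went the other way, from 5.23 and 5.45 to 4.76 and 4.77. Both of its knockout values lay below both wild-type values. It fell by 0.58 (SE 0.11, limma adjusted p = 0.00841), which made it 1.49-fold lower; without wild-type replicate 2 the adjusted p was 0.0606.

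Along the Hoxb cluster the change therefore ran from 1.06 at Hoxb1 to -0.58 at Hoxb13, though not in even steps, since Hoxb3 and Hoxb9 had changes of 0.18 and 0.32. Spearman's rho between the change and the paralog number was -0.78 over the 9 genes. The same rho was 0.58 in cluster A (n = 10), 0.12 in C (n = 9) and -0.05 in D (n = 8), and -0.08 over all 36 members. These are descriptions across genes that share the same 4 arrays. Whether the slopes of the clusters differ was not tested.

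**Figure D3:**
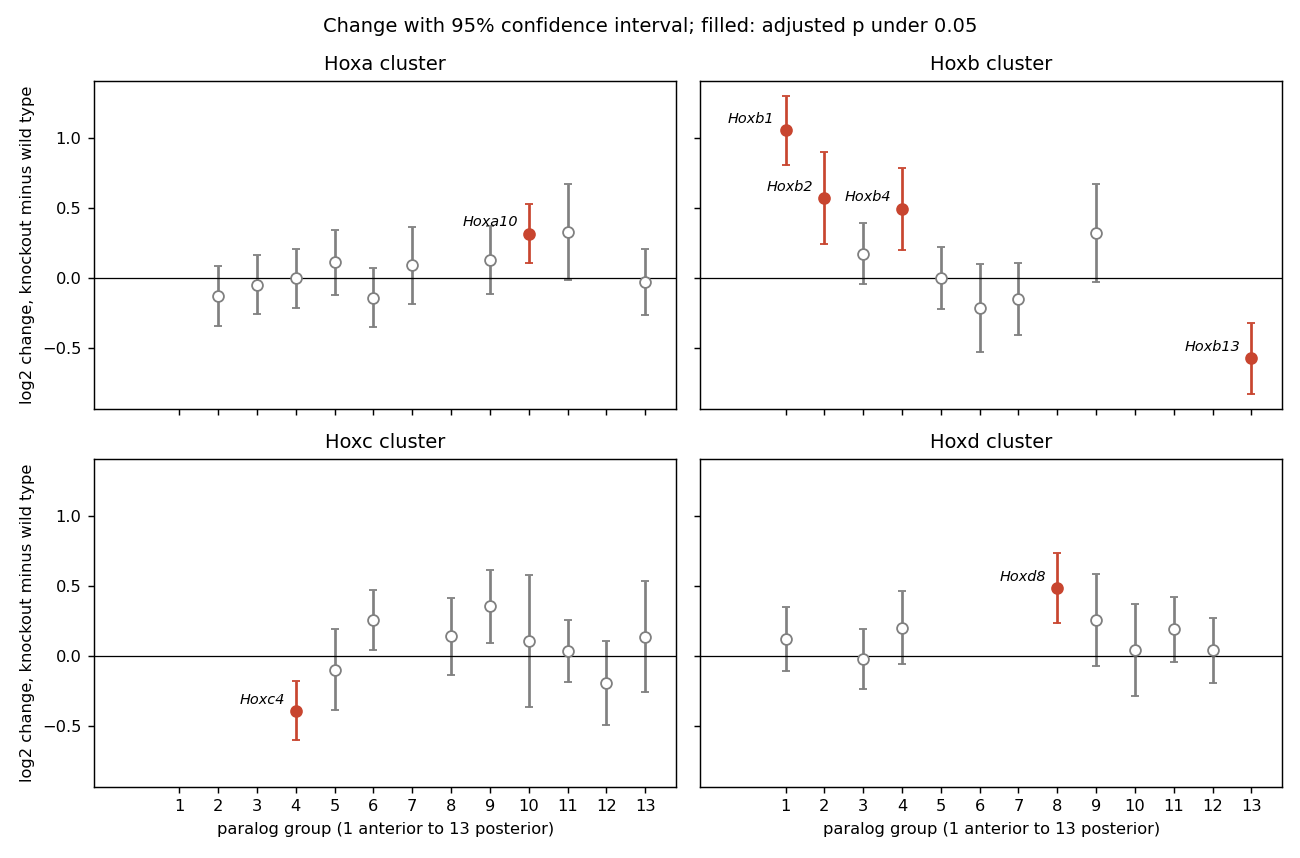
Log2 change (knockout minus wild type) with its 95% confidence interval from limma against paralog group, from 1 (anterior) to 13 (posterior), for each cluster. Filled red points passed an adjusted p of 0.05; open grey points did not. The Hoxb panel runs downward from Hoxb1 at 1.06 to Hoxb13 at -0.58, and the other panels stay near 0 with 1 called gene each.

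In cluster A, 1 of 10 members passed. Hoxa10, which patterns the lumbar spine and the uterus, read 4.28 and 4.30 in wild-type and 4.62 and 4.60 in knockout cells. The replicates were close to each other and the groups did not overlap. The change was 0.32 (SE 0.09, limma adjusted p = 0.0380), and the adjusted p rose to between 0.114 and 0.138 with any 1 sample left out. It was 0.206 with array medians subtracted. Hoxa11, its neighbour and a limb gene, read 3.86 and 3.76 against 3.94 and 4.35, and its change of 0.33 did not pass (adjusted p = 0.143), except without knockout replicate 1 (adjusted p = 0.0196).

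No anterior or central Hoxa gene passed the test. Hoxa2, a hindbrain and jaw patterning gene, and Hoxa3, which acts in the thymus and parathyroid, had changes of -0.13 and -0.05. Hoxa4 read 5.13 and 5.15 in wild-type and 5.15 and 5.13 in knockout cells, with a confidence interval of the change from -0.21 to 0.21. Hoxa5, Hoxa6 and Hoxa7, trunk and lung genes, had changes of 0.11, -0.14 and 0.09; Hoxa7 read 4.85 and 4.97 against 4.88 and 5.13. Hoxa9, a blood progenitor gene, and Hoxa13, a gene of digits and tail, had changes of 0.13 and -0.03 that did not pass. With array medians subtracted Hoxa2 and Hoxa6 passed as lower (adjusted p = 0.0396 and 0.0338).

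Cluster C held 1 call, and it was a fall. Hoxc4, of the same paralog group as Hoxb4, read 4.33 and 4.32 in wild-type and 3.92 and 3.95 in knockout cells. Replicates lay close together in both groups, which did not overlap. It fell by 0.39 (SE 0.09, limma adjusted p = 0.0178), which made it 1.31-fold lower, and with any 1 sample left out the adjusted p was between 0.0576 and 0.0866. Hoxc9, a thoracic motor neuron gene, read 4.10 and 4.12 against 4.35 and 4.59, a change of 0.36 just outside the threshold (adjusted p = 0.0531) that passed without knockout replicate 1 (adjusted p = 0.0283). Hoxc6, another motor neuron gene, had a change of 0.26 (adjusted p = 0.0759), and neither it nor Hoxc9 had overlapping groups.

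The other Hoxc members had changes between -0.19 and 0.14. Hoxc10, a lumbar gene, differed more between the wild-type replicates (3.23 and 3.87) than between the group means (3.55 and 3.66). Hoxc13, needed for hair and nails, read 4.58 and 5.01 against 4.79 and 5.08, with overlapping groups. Hoxc5, Hoxc8, Hoxc11 and Hoxc12 had overlapping groups as well.

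In cluster D, 1 of 8 members passed. Hoxd8, a trunk gene, read 3.31 and 3.21 in wild-type and 3.66 and 3.84 in knockout cells. The groups did not overlap, and the change was 0.49 (SE 0.10, limma adjusted p = 0.0145). Its mean over all samples, 3.50, lies within the range of the olfactory receptor probe sets. The adjusted p of Hoxd8 was between 0.0665 and 0.103 without wild-type replicate 1, wild-type replicate 2 or knockout replicate 2, and 0.0521 with array medians subtracted.

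Hoxd9, Hoxd10 and Hoxd11, genes of the lumbar spine and limbs, had changes of 0.26, 0.04 and 0.19 and did not pass. Hoxd10 read 4.77 and 4.41 against 4.56 and 4.71, so that its knockout values fell between the wild-type ones. Hoxd1, the Hoxd paralog of Hoxb1, read 4.03 and 3.88 against 4.10 and 4.07; its change of 0.12 did not pass (adjusted p = 0.406), with a confidence interval from -0.11 to 0.35. Hoxd3, Hoxd4 and Hoxd12 had changes of -0.02, 0.20 and 0.04. Over the 29 members of all clusters that did not pass, changes lay between -0.21 and 0.36, and no confidence interval reached beyond -0.53 or 0.68.

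Sorted by position, 2 of 7 anterior members (groups 1 to 3) rose (28.6%, against 14.2% of all genes) and 0 fell (against 12.7%). At an unadjusted limma p under 0.05, 0 anterior members were lower. Among 14 central members (groups 4 to 8) 2 rose (14.3%) and 1 fell (7.14%). Among 15 posterior members (groups 9 to 13) 1 rose (6.67%) and 1 fell (6.67%). So few genes per class make these counts a description. The median changes were 0.12, 0.04 and 0.13, and each was below 0 with array medians subtracted. Both anterior rises lie in the Hoxb cluster. In paralog group 9 the changes of all 4 members lay between 0.13 and 0.36, yet none passed, and with array medians subtracted Hoxa9 turned to -0.04. In group 4 Hoxb4 rose and Hoxc4 fell, while Hoxa4 and Hoxd4 had changes of 0.00 and 0.20.

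MicroRNA genes lie inside the clusters, and their mature sequences are shown because 2 of the genes called lower encode the same miRNA. miR-10 genes sit near Hoxb4 and Hoxd4, and miR-196 genes near the group 9 and 10 genes; both families are known to target Hox transcripts. Mature 5p sequences from RefSeq (GRCm38.p6) run 5' to 3' with the seed, bases 2 to 8, in capitals.
miR-10a-5p: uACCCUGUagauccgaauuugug
miR-10b-5p: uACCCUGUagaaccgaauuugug
miR-196a-5p: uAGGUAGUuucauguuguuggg
miR-196b-5p: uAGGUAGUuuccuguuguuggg
Each pair shares its seed and differs at 1 base, counted from 1 at the 5' end: U12A from miR-10a to miR-10b and A12C from miR-196a to miR-196b. Mir196a-1, in the Hoxb cluster at chr11:96265187-96265208 (plus strand), and Mir196a-2, in the Hoxc cluster at chr15:102973365-102973386 (plus strand), encode the same miR-196a-5p.

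Both miR-196a genes were lower in the knockout. Mir196a-1 read 4.56 and 4.79 in wild-type and 3.78 and 4.21 in knockout cells and fell by 0.68 (SE 0.16, limma adjusted p = 0.0209). Mir196a-2 read 3.05 and 2.94 against 2.66 and 2.62 and fell by 0.35 (SE 0.09, limma adjusted p = 0.0324). Neither had overlapping groups, and the Mir196a-2 values lie at the dim end of the array. Mir196a-1 missed the threshold without wild-type replicate 1, wild-type replicate 2 or knockout replicate 1 (adjusted p = 0.0526 to 0.156), and Mir196a-2 with any 1 sample left out (0.0768 to 0.148). Mir196b in the Hoxa cluster and Mir10a in the Hoxb cluster had changes of -0.27 and -0.31 that did not pass (adjusted p = 0.0821 and 0.0522); with array medians subtracted both did (0.0128 and 0.00930). Mir10b had a change of -0.04 and Mir615 one of -0.12. The array reads total RNA, so these values may come from the precursor or its host transcript and do not measure the mature miRNA. Hottip, a long non-coding RNA at the 5' end of the Hoxa cluster, rose from 3.39 to 3.73 (log2 0.35, adjusted p = 0.0462), with the call lost at an adjusted p of 0.176 after subtraction of array medians, of 0.0532 after subtraction of the medians of all probe sets and of 0.153 to 0.203 without wild-type replicate 1, wild-type replicate 2 or knockout replicate 1.

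Falls but no rises were called next to the clusters. Of the 16 protein-coding genes nearest to the measured Hox genes, 2 on each side of each cluster, 5 fell (31.2%, against 12.7% of all genes) and 0 rose in limma (against 14.2% of all genes; 1 was higher at an unadjusted p under 0.05). Only 4 of the 16 read below the array median in all samples. Of genes above the median level, fitted alone, 21.6% were called lower and 20.3% higher. With so few genes the counts are a description. Ttll6, a tubulin polyglutamylase gene next to Hoxb13, fell by 0.99 (adjusted p = 0.00170), beside the fall of Hoxb13. At the other end, next to Hoxb1, Skap1 and Snx11 had changes of -0.25 and -0.16. Skap2 beside Hoxa2 fell by 0.63, Calcoco1 beside Hoxc13 by 0.49, Smug1 beside Hoxc4 by 0.46 and Mtx2 beside Hoxd1 by 0.36. The homeobox genes Evx1 and Evx2, which adjoin the posterior ends of Hoxa and Hoxd and are expressed with them in the embryo, had changes of 0.07 and -0.07. A list of 15 bordering genes chosen by name shares 14 of these genes and holds the same 5 falls. Leaving out wild-type replicate 1, wild-type replicate 2 or knockout replicate 2 gave fewer falls in it, and fewer over all genes.

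Several upstream regulators of Hox genes rose. Of 14 measured genes of the posterior axis 9 rose (64.3%, against 14.2% of all genes) and 1 fell, with a median change of 0.59. With array medians subtracted 8 rose and 2 fell. The 9 rises include Lin28a (0.45) and Lin28b (0.70), and Lin28a is also counted above as the stem cell marker that rose. Cdx2 and Cdx4, caudal-type factors that bind Hox loci, read 4.69 and 4.62 against 5.58 and 5.80, and 3.09 and 3.23 against 4.14 and 4.40. They rose by 1.03 (SE 0.11, limma adjusted p = 8.85e-04) and 1.11 (SE 0.12, limma adjusted p = 9.74e-04) without overlap. Fgf8, a growth factor of the tail bud, rose by 1.33, and Nkx1-2, a marker of axial progenitors, by 0.86. Cdx1 had a change of -0.13 (adjusted p = 0.469), and Wnt3a, a posterior Wnt ligand, fell by 0.42. Without wild-type replicate 2 the list had fewer rises, as had all genes, and the fall of Wnt3a was kept only without knockout replicate 2. Cdx2, Cdx4 and Fgf8 passed with any 1 sample left out.

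Retinoic acid genes went both ways, with 7 of 19 higher (36.8%, against 14.2% of all genes) and 4 lower (21.1%, against 12.7%). With array medians subtracted 5 were higher and 5 lower, where 34% of all genes were lower. Cyp26a1, the enzyme that degrades retinoic acid and is itself one of its targets, read 4.03 and 4.07 in wild-type and 5.18 and 5.72 in knockout cells, a rise of 1.40 (SE 0.17, limma adjusted p = 0.00158). Rxrg, a retinoid receptor, rose by 1.36 and Stra6, the retinol transporter, by 1.13. Crabp1, a retinoic acid binding protein, fell by 0.88. The receptors Rarg, Rara and Rarb fell by 0.77, 0.47 and 0.37, while Rxra had a change of 0.10 that did not pass. Without wild-type replicate 1 or wild-type replicate 2 the list had fewer rises and fewer falls, as had all genes. Cyp26a1 passed with any 1 sample left out.

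Cofactors that bind DNA with Hox proteins changed in part. Of 8 measured genes of the TALE class 3 rose (37.5%, against 14.2% of all genes) and 1 fell (12.5%, against 12.7%). With array medians subtracted 2 rose and 3 fell. Pbx3 read 7.12 and 7.01 against 8.44 and 8.35 and rose by 1.33 (SE 0.10, limma adjusted p = 2.11e-04). Meis3 rose by 0.71 and Meis1, whose adjusted p was 0.0432, by 0.58; Pknox1 fell by 0.45. Of 6 measured hindbrain partners 1 rose (16.7%, against 14.2% of all genes) and 2 fell (33.3%, against 12.7%). Epha7 rose by 1.44, and Epha4 and Gbx2 fell by 1.61 and 0.96. Egr2, the factor that switches on Hoxb2 in the hindbrain, had values of 3.91 and 3.62 against 5.41 and 4.09. Its change of 0.98 did not pass (adjusted p = 0.107). Without knockout replicate 2 Egr2 passed and the hindbrain list had more rises, while fewer of all genes rose. Above the lower quartile of level the hindbrain list had 2 rises, where 18.8% of the genes tested were called higher. Pbx3, Epha7, Epha4 and Gbx2 passed with any 1 sample left out, while Meis1 did so only without knockout replicate 1. Fewer cofactors rose without wild-type replicate 1, as did fewer of all genes.

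Among Polycomb genes, whose products repress Hox clusters, 10 of 27 were lower (37.0%, against 12.7% of all genes) and 5 higher (18.5%, against 14.2%). With array medians subtracted 16 were lower and 2 higher, where 34% of all genes were lower. Only 2 of the 27 read below the array median in all samples. Of genes above the median level, fitted alone, 21.6% were called lower and 20.3% higher. Rnf2 read 10.11 and 10.02 against 9.43 and 9.55 and fell by 0.58 (SE 0.10, limma adjusted p = 0.00560), while Ring1, its paralog, had a change of -0.13 (adjusted p = 0.363). Jarid2 and Eed, subunits of the H3K27 methyltransferase complex, fell by 0.73 and 0.67. Pcgf5 and Yaf2, subunits of variant complexes, rose by 0.89 and 0.74. Without wild-type replicate 1 or wild-type replicate 2 the Polycomb list had fewer falls and fewer rises, as had all genes. Rnf2 missed the threshold without wild-type replicate 1. Of 12 Trithorax and H3K27 demethylase genes, which oppose Polycomb, 5 fell (41.7%, against 12.7% of all genes) and 0 rose (against 14.2%). Of these 12, 0 read below the array median in all samples, and 21.6% of genes above the median level, fitted alone, were called lower. At an unadjusted limma p under 0.05, 0 were higher. With array medians subtracted 8 fell, where 34% of all genes were lower. The lowest changes were those of the methyltransferase gene Kmt2c (-1.17) and Rbbp5 (-0.79), with Dpy30 (-0.49) and Kmt2b (-0.42) after them. Without wild-type replicate 1, wild-type replicate 2 or knockout replicate 2 fewer of the 12 fell, as did fewer of all genes.

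Other homeobox genes, a mixed list with forebrain, gut, heart, trunk and limb members counted the same way, had 8 of 31 higher (25.8%, against 14.2% of all genes) and 0 lower in limma (1 was lower at an unadjusted p under 0.05, and with array medians subtracted 5 were higher and 1 lower). Barx1 (1.08), Msx2 (0.99), Irx5 (0.92) and Irx3 (0.77) rose most. Without wild-type replicate 1, wild-type replicate 2 or knockout replicate 2 the list had fewer rises, as had all genes. The median change of the list was 0.07, against 0.11 for the Hox members.

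**Figure D4:**
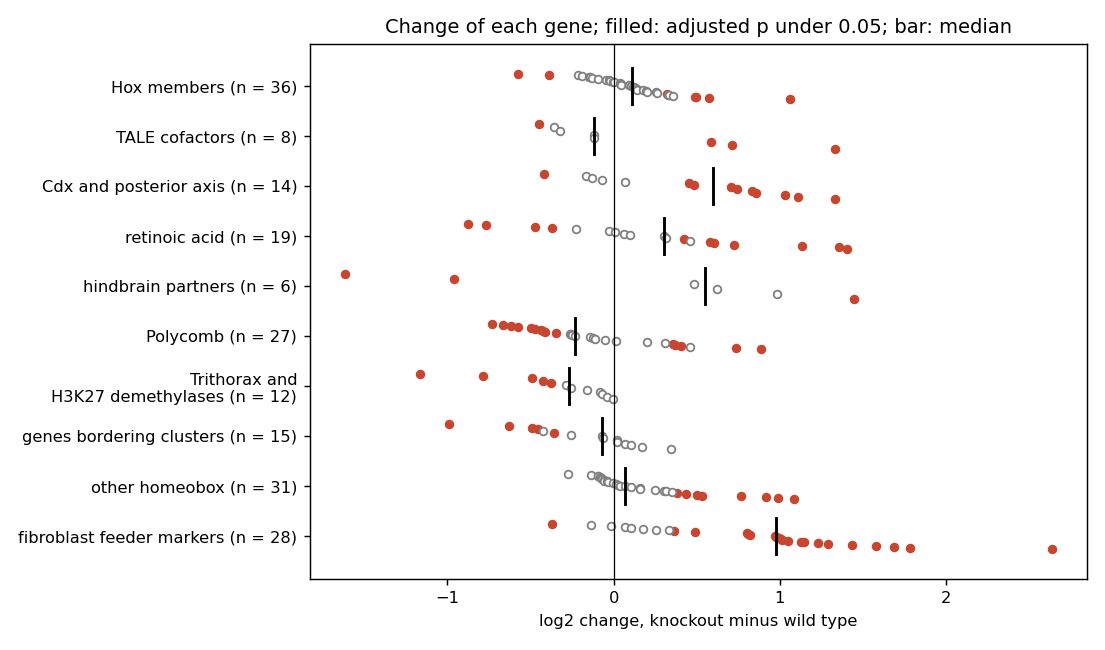
Log2 change (knockout minus wild type) of each gene in the Hox family and in 9 other lists; the number of measured genes stands beside each name. Filled red points passed an adjusted p of 0.05, open points did not, and the black bar is the median. Most Hox points lie between -0.21 and 0.36, while the posterior axis and fibroblast lists sit to the right.

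Markers of other cells moved with the groups. Fibroblasts, the feeder cells here, express Hox genes according to the body region they come from. Of 28 fibroblast markers 20 rose and 1 (Prrx2) fell, and with 1 sample left out 16 to 18 rose. The 20 rises are 71.4% of the list, against 14.2% of all genes. The summed level of the 28 markers on the linear scale was 3794 and 3556 in wild-type and 7213 and 7968 in knockout cells. Vim and Sparc, bright in the wild type already (means of 10.03 and 9.95), weigh heavily in that sum. Of 10 defining markers (Col1a1, Col1a2, Col3a1, Pdgfra, Pdgfrb, Thy1, Twist2, Prrx1, Lum and Postn) 8 rose (80%). The defining markers alone summed to 324 and 285 in wild-type and 686 and 660 in knockout cells. The matrix genes Dcn, Col1a1 and Lox and the receptor gene Pdgfrb rose by 2.64, 1.78, 1.69 and 1.57. The defining markers Lum and Thy1 did not pass (adjusted p = 0.336 and 0.191). Neural progenitor markers went both ways. Of 9 measured, 3 were higher (33.3%, against 14.2% of all genes), led by Nes (2.36) and Fabp7 (1.07). Sox1 (-1.33) and Olig2 (-0.74) were the 2 lower ones (22.2%, against 12.7% of all genes). In bulk RNA a change in the number of cells of a type and a change of RNA per cell cannot be told apart.

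**Figure D5:**
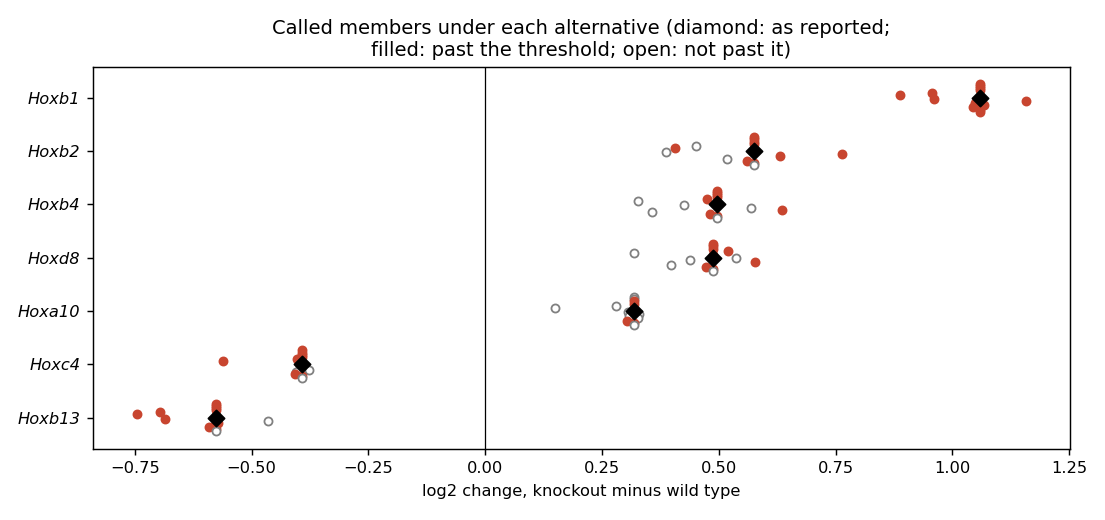
Log2 change of the 7 called members as reported (black diamond) and under each alternative of normalization, filter, prior, threshold or left-out sample (circles; filled, past the threshold; open, not past it). Hoxb1 stays between 0.89 and 1.16 with filled circles throughout, and each of the others has open circles.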

How the data were processed

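The authors deposited log2 values for 35556 probe sets, for which the submitters' processing notes name affy and RMA without versions. RMA compresses differences among dim probe sets, where the Hox members lie. Samples were grouped by title. Of the probe sets, 21218 have 1 gene symbol; the one with the highest mean was kept per gene, leaving 18820 genes, with no filter on dim genes. Symbols came from the platform annotation, and gene order from RefSeq GRCm38.p6.

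The comparison of the groups used lmFit and eBayes of limma 3.58.1 (R 4.3.3), two-sided, Benjamini-Hochberg adjusted over all genes, threshold 0.05. The fit was tested on simulated data. Members and the 12 lists were chosen with earlier results of these data known. Values were given for members past the threshold, the 3 with the highest mean per cluster and those with replicates over 0.5 apart, for up to 4 called genes with the largest change per list, and for Trim28, Pou5f1, Nanog, Sox2, Cdx1, Cdx2, Cdx4, Rnf2, Ring1 and the cluster neighbours. Other genes were named after their values were seen. The alternatives were a replicate block, 2 other priors, 2 filters on dim genes, 2 normalizations, averaging the probe sets per gene, each sample left out, and 2 thresholds. Subtraction of the medians of all probe sets was added after the data were seen. With 2 arrays per group, their number limits the precision.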

Additional observations from a re-analysis of the deposited data

How the results depend on the processing

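Over all genes the calls numbered 5071 (2676 higher, 2395 lower); with array medians of the tested genes subtracted there were 8457, of which 6392 were lower, and with a limit of 1.5-fold 2712 (1744 higher, 968 lower). With 1 sample left out the calls ranged from 2430 to 4350, the higher ones from 1531 to 2405 and the lower ones from 899 to 1945. Of the 36 Hox members 7 were called, and with 1 sample left out 2 to 8, with 1 to 7 higher and 0 to 1 lower; a limit of 1.5-fold left 1 higher (Hoxb1) and 0 lower. With array medians subtracted 2 Hox members were higher and 4 lower. Subtracting the medians of all probe sets, added after the data were seen, gave 5192 calls over all genes and 7 among the members. No member lies above the median level of all genes, so that filter gave no Hox value. Where 1 sample is left out, the lone sample of its group is assumed to vary like the other group.

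The median change over the members was 0.11, 0.077 under quantile normalization and -0.059 once array medians were subtracted, and ranged from 0.064 to 0.12 with 1 sample left out. With array medians subtracted the medians of clusters A, B, C and D were -0.12, 0.0062, -0.063 and -0.012, and those of the anterior, central and posterior members -0.046, -0.12 and -0.039. Quantile normalization gave 0.039 for cluster B, 0.039 for the anterior and -0.022 for the central members. Above the lower quartile of level the median was 0.10 in cluster A (8 genes), 0.12 in D (5), 0.18 in the anterior (5) and -0.0014 in the central members (11). With 1 sample left out the medians ranged from -0.012 to 0.073 in A, 0.11 to 0.21 in B, 0.031 to 0.21 in C, 0.095 to 0.21 in D, 0.050 to 0.20 in the anterior, 0.0035 to 0.095 in the central and 0.082 to 0.14 in the posterior members. The cause of these shifts was not tested.

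The replicate numbers are shared by name only. Deviations of same-numbered samples correlated at 0.15 over genes. With the replicate block 5093 genes and 6 Hox members (4 higher, 2 lower) were called; Hoxa10 missed the threshold (adjusted p = 0.0519). In the hindbrain list the block gave 5 calls of 6 in place of 3, while it called 14.3% of all genes higher and 12.8% lower. Signal over background is not known, so changes among dim members are limited by it.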
